A study of Homo sapiens with 9 samples.

Results

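The splicing factor genes described here are the SR protein genes (SRSF), the hnRNP genes (HNRNP), the genes of the SF3A and SF3B complexes (SF3), the PRPF genes and both subunits of U2AF. The rule that finds them reads gene symbols and no measured value, but the families were picked with earlier results of these data known. It took every row of the authors' table of normalized counts whose symbol has the form of 1 of these families, and left out 40 rows whose symbols have a hyphen (2 rows) or end in P and digits, the form of pseudogene names. It found 59 of 17518 rows: 22 HNRNP, 13 SRSF, 13 PRPF, 9 SF3 and 2 U2AF rows. They carry 58 symbols, because SRSF8 stands on 2 Ensembl identifiers. All 59 passed the filter on low values. The cells were COR-L279, a line grown from a human small cell lung cancer, which the labels place in the NEUROD1 subtype (SCLC-N) and call wild type. They were kept for 24 h in DMSO, the solvent control, in 0.5 µM JQ1 or in 1.5 µM JQ1, and total RNA was sequenced from 3 biological replicates of each group. JQ1 displaces BET bromodomain proteins from acetylated chromatin. A single line and a single time point were studied, and both doses were compared with the same 3 DMSO libraries.

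Splicing removes introns from pre-mRNA through the stepwise assembly of the spliceosome. SR proteins carry a domain rich in arginine and serine, bind enhancer sequences in exons and recruit the first complexes, while many hnRNPs coat the transcript and can silence exons. U2AF2 binds the pyrimidine-rich tract before the 3′ splice site and U2AF1 reads the AG beside it. The SF3A and SF3B complexes, as parts of the U2 snRNP, then grip the branch point, and PRPF proteins serve in the U1 snRNP, in the U4/U6.U5 tri-snRNP, in the Prp19 complex and at the catalytic steps. SF3B1, U2AF1 and SRSF2 are recurrently mutated in cancers.

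The libraries held between 60721187 and 88482001 reads in genes. Replicate 2 at 0.5 µM stood apart: among the 0.5 µM libraries it was the highest for 39 and the lowest for 16 of the 59 members (93.2%), against 82.9% for all 17514 tested genes. In 3 other JQ1 libraries, called H19-positive here (0.5 µM replicate 3, 1.5 µM replicates 1 and 2), H19 had 1476 to 2071 normalized counts and SLC2A3 390 to 489. The remaining JQ1 libraries had 1.04 to 8.22 of H19 and 0 to 3.52 of SLC2A3. DMSO libraries lay between for H19 (63.8 to 82.8) and had 0 to 1.56 of SLC2A3. Counts are therefore also given without the 3 H19-positive libraries. HEXIM1, which rises under BET inhibitors, had log2 fold changes of 2.29 ± 0.032 and 2.63 ± 0.032 (SE, limma adjusted p = 5.19e-11 and 1.26e-11). MYC had -0.49 ± 0.024 and -0.67 ± 0.024. The neuroendocrine markers sought (7 of 7 present, 264 to 365 FPKM of NEUROD1 over the libraries) summed to between 1364 and 1441 FPKM, with 2 up and 4 down at 0.5 µM and 2 up and 3 down at 1.5 µM, where FPKM is a read count scaled to transcript length and library depth. Of 10 markers of other cells, 6 were in the table of counts, and their sum went from 91.4 to 95.1 FPKM in DMSO to 36.4 to 38.04 FPKM at 1.5 µM, mostly CD44, with 1 of the 6 up and 3 down at each dose. AXL and POU2F3 were at most at 0.1 FPKM. PTPRC, which marks blood cells, lay between 0 and 0.02 FPKM. The part of these differences between libraries in the results on splicing factors was not tested beyond the counts given.

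Most splicing factor genes changed in RNA level under JQ1, and by little. At 0.5 µM, 14 of the 59 members rose, 24 fell and 21 did not pass the test (limma on log2(normalized count + 1), Benjamini-Hochberg adjusted p under 0.05 over all 17514 tested genes). The share that changed was 64.4%, against 70.0% of all tested genes. Without 0.5 µM replicate 2 the order was the other way, with 15 members that rose and 30 that fell (76.3%, all tested genes 73.3%). At 1.5 µM, 16 rose, 30 fell and 13 did not pass, so that 78.0% changed against 73.1% of all tested genes. More members fell than rose: 40.7% fell at 0.5 µM and 50.8% at 1.5 µM, where 34.7% and 36.2% of all tested genes fell, while 23.7% and 27.1% rose, against 35.3% and 36.9%. Their median log2 fold changes were -0.057 and -0.14, those of all tested genes -0.010 and -0.0030. In bulk RNA fewer cells of a type and less RNA per cell cannot be told apart, and with no external standard every value is relative to the bulk of genes.

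No member reached a 2-fold change in either comparison, a size that 14.9% of all tested genes reached at 0.5 µM and 18.8% at 1.5 µM. The median size of the members' log2 fold changes was 0.15 and 0.21, against 0.38 and 0.43 over all tested genes. The 3 libraries of each group lay apart for 40 of 59 members at 0.5 µM (67.8%, all tested genes 72.6%) and for 53 at 1.5 µM (89.8%, all tested genes 81.7%). Members that passed at both doses had the same direction at both. Log2 fold changes of HNRNPH2, HNRNPR, PRPF38A, PRPF4, SF3A1 and SRSF7, which passed at neither dose, had opposite signs. Of the 59, 23 fell at both doses, 14 rose at both, 9 passed at 1.5 µM alone, 1 at 0.5 µM alone and 12 at neither, and no member passed with opposite signs. As both comparisons share the DMSO libraries, this count is given as a description, and its share over all tested genes was not computed. Of the 9 that passed at 1.5 µM alone, 7 also passed at 0.5 µM without 0.5 µM replicate 2 (HNRNPA2B1, HNRNPC, HNRNPDL, HNRNPK, HNRNPU, SRSF12, SRSF6). Scaling moved the balance of members and of all genes. At 0.5 µM 7 members rose and 21 fell on FPKM values (11.9% and 35.6%, all tested genes 28.7% and 32.0%). With upper-quartile scaling 9 rose and 28 fell there (15.3% and 47.5%, all tested genes 31.8% and 38.6%). At 1.5 µM the FPKM values gave 8 that rose and 33 that fell (13.6% and 55.9%, all tested genes 29.7% and 34.8%). Without the 3 H19-positive libraries, which leaves 1 library at 1.5 µM that is assumed to vary like the others, the balance was 11 to 15 at 0.5 µM and 10 to 19 at 1.5 µM, so that 44.1% and 49.2% of the members passed, against 63.4% and 60.6% of all tested genes. The median log2 fold changes of the members in that fit were -0.040 and -0.13. Calls lost without these libraries included those of HNRNPA0, HNRNPD, HNRNPH1, HNRNPUL1, PRPF19, PRPF31, PRPF40B, SF3B2, SF3B5, SRSF10, SRSF2, SRSF3 and SRSF8 on ENSG00000271885.1 at 0.5 µM and of HNRNPA1L2, HNRNPA2B1, HNRNPA3, HNRNPC, HNRNPDL, HNRNPH1, HNRNPK, PRPF39, PRPF40B, PRPF8, SF3B2, SF3B5, SRSF10, SRSF12, SRSF6 and SRSF8 on ENSG00000271885.1 at 1.5 µM. In a fit to the 6 libraries compared, the calls of HNRNPH1, HNRNPL, PRPF18, PRPF31, SRSF2 and SRSF8 on ENSG00000271885.1 at 0.5 µM were lost and none at 1.5 µM, while HNRNPAB, HNRNPCL1, HNRNPL, PRPF3, SF3B14 and SRSF11 gained a call at 1.5 µM, where 52 members passed (88.1%, all tested genes 80.1%).

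**Figure D1:**
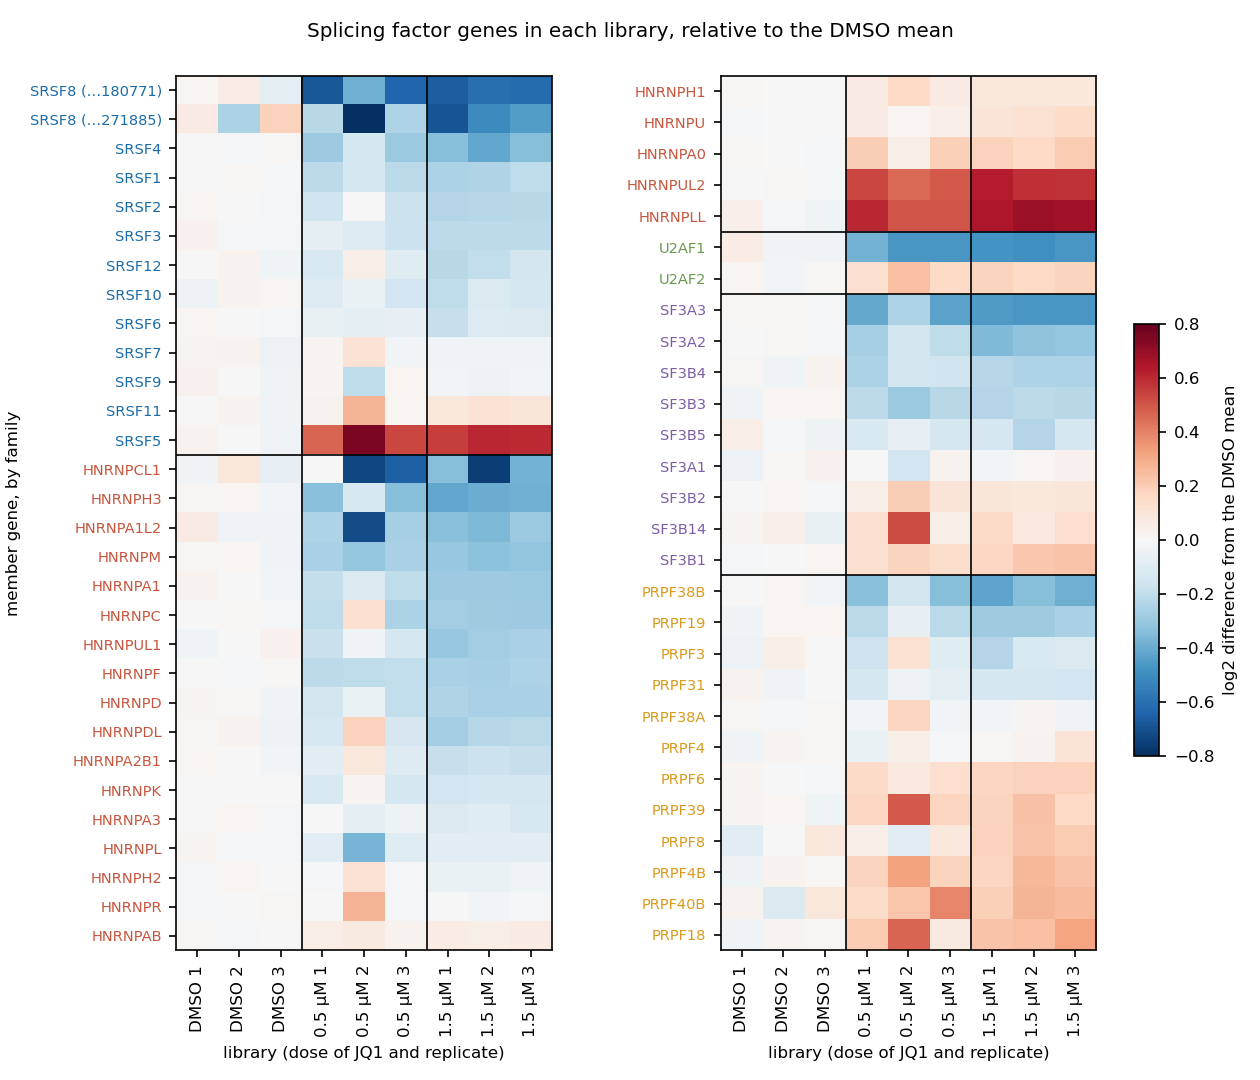
Heat map of 58 of the 59 splicing factor genes (rows, grouped and coloured by family) in the 9 libraries (columns), each cell giving the log2 difference of log2(normalized count + 1) from the DMSO mean of that gene, with red above and blue below. A few rows (SRSF5, HNRNPLL, HNRNPUL2) are red and most SRSF and HNRNP rows blue in the JQ1 libraries, and 0.5 µM replicate 2 differs from its neighbours in many rows.

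The counts are given by family beside those of all tested genes, of which 35.3% and 36.9% rose and 34.7% and 36.2% fell, and the balance was not tested between families. In the SRSF family of 13 members 1 rose at each dose, and the members that fell were 7 at 0.5 µM and 9 at 1.5 µM, or 53.8% and 69.2%, with median log2 fold changes of -0.10 and -0.19. Among 22 HNRNP members 4 rose and 8 fell, then 5 rose and 12 fell (36.4% and 54.5% fell), with medians of -0.060 and -0.16. Of 9 SF3 members 2 were higher and 5 lower under either dose (medians -0.11 and -0.17). The PRPF family was the one with more rises than falls by these counts: of 13 members 6 rose and 3 fell, then 7 rose and 3 fell (46.2% and 53.8% rose), with medians of 0.043 and 0.17. On FPKM values 3 PRPF members rose and 2 fell at 0.5 µM, then 2 rose and 3 fell at 1.5 µM (median 0.10), and with upper-quartile scaling the PRPF median at 0.5 µM was -0.011. Of the U2AF subunits, U2AF1 fell and U2AF2 rose at both doses on normalized counts.

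**Figure D2:**
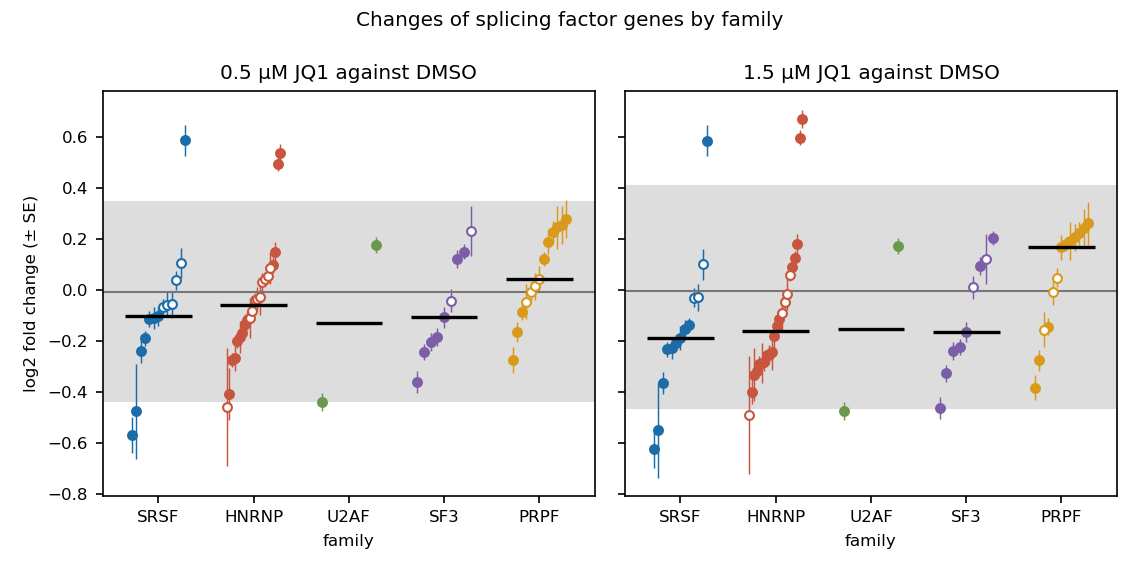
Log2 fold change (vertical axis, bars are SE) of each member at 0.5 µM (left) and 1.5 µM JQ1 (right) against DMSO, by family along the horizontal axis, with filled points for members that passed the test, black lines for family medians and a grey band and line for the middle 50% and the median of all tested genes. Most members lie inside the band, and the PRPF median is 0.17 at 1.5 µM while the SRSF median is -0.19.

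Among the SR proteins, SRSF5 moved against its family. SRSF5, which is known for rapid induction by insulin and growth signals, had 12225, 12009.6 and 11788 normalized counts in DMSO, 16608, 20262 and 17367 at 0.5 µM and 17621, 18211 and 18166 at 1.5 µM. It rose 1.51-fold and 1.5-fold, with log2 fold changes of 0.59 ± 0.061 (SE, adjusted p = 9.54e-06) and 0.58 ± 0.061 (SE, adjusted p = 7.67e-06). Every JQ1 library lay above every DMSO library, and the call held under all 21 alternatives of scaling, test and left-out libraries at both doses. SRSF4, one of the largest SR proteins, went the other way, with 6988, 6911 and 7013 normalized counts in DMSO, 5696, 6335 and 5685 at 0.5 µM and 5505, 5225 and 5507 at 1.5 µM. Its log2 fold changes were -0.24 ± 0.044 (SE, adjusted p = 0.000627) and -0.37 ± 0.044 (SE, adjusted p = 2.46e-05), again with no overlap between the groups. The promoters of both genes are printed because these members, from 1 family, changed in opposite directions. They are the 250 bases before the start, from RefSeq on build GRCh38.p14, at chr14:69766892-69767141 (plus strand) and chr1:29181901-29182150 (minus strand), written 5′ to 3′ on the strand of the gene. Capitals mark the ETS core CCGGAAG or its reverse complement, 57 bases before the start of SRSF5 and 241 before that of SRSF4.
SRSF5: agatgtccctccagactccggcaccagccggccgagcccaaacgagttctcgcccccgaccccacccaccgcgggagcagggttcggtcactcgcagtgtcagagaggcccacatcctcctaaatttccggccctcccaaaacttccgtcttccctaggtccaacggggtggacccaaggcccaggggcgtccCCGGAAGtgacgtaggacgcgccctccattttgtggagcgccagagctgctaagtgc
SRSF4: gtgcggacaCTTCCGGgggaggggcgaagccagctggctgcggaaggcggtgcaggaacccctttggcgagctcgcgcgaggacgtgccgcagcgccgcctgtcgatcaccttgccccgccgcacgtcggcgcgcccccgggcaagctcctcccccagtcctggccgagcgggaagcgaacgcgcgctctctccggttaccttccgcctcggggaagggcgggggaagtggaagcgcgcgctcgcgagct

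SRSF1 and SRSF2 fell by less. SRSF1, the founding member, which acts in constitutive and alternative splicing and can behave as an oncoprotein, had 32893, 32996 and 32571 normalized counts in DMSO, 28412, 29736 and 28204 at 0.5 µM and 27533, 27726 and 28489 at 1.5 µM. Its log2 fold changes were -0.19 ± 0.029 (SE, adjusted p = 0.000183) and -0.23 ± 0.029 (SE, adjusted p = 3.22e-05). SRSF2, whose recurrent mutations in myeloid cancers change its RNA binding, had 21962, 21675 and 21498 normalized counts in DMSO, 19410.5, 21781 and 19283 at 0.5 µM and 18415, 18562 and 18654 at 1.5 µM. It fell by 0.11 ± 0.043 (adjusted p = 0.0431) and by 0.23 ± 0.043 (adjusted p = 0.000703) on the log2 scale. At 0.5 µM replicate 2 lay among the DMSO libraries of SRSF2, and the call there was lost under 12 of 21 alternatives, among them FPKM values (adjusted p = 0.0942) and edgeR (adjusted p = 0.0514; range over the alternatives 1.52e-05 to 0.248). SRSF3, the smallest SR protein and a link between splicing and export, fell at both doses (-0.12 ± 0.031 and -0.21 ± 0.031). SRSF10, a splicing repressor when dephosphorylated, also fell at both (-0.10 ± 0.037 and -0.15 ± 0.037), while SRSF6 (-0.14 ± 0.029) and SRSF12 (-0.19 ± 0.048) passed at 1.5 µM alone. At 0.5 µM SRSF6 and SRSF12 passed without 0.5 µM replicate 2 (adjusted p = 0.0498 and 0.0169) and with upper-quartile scaling (adjusted p = 0.00509 and 0.0428), and SRSF6 also by DESeq2 or when 1.5 µM replicate 1 was left out (adjusted p = 0.0439 and 0.0472). Without the 3 H19-positive libraries the falls of SRSF6, SRSF10 and SRSF12 at 1.5 µM did not pass (adjusted p = 0.0545, 0.0534 and 0.149), with log2 fold changes of -0.12, -0.14 and -0.14 in that fit against -0.14, -0.15 and -0.19, nor did SRSF3 at 0.5 µM (adjusted p = 0.0864). The 0.5 µM call of SRSF10 was also lost without DMSO replicate 2 or 3 or 0.5 µM replicate 1 or 3 (adjusted p between 0.0663 and 0.108).

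The largest falls of the family were those of SRSF8, a gene that arose as a retrocopy of SRSF2. On the identifier ENSG00000180771.10 it had 1799, 1855 and 1687 normalized counts in DMSO, 1110.1, 1357 and 1145 at 0.5 µM and 1126, 1172 and 1162 at 1.5 µM, and log2 fold changes of -0.57 ± 0.072 (SE, adjusted p = 4.28e-05) and -0.62 ± 0.072 (SE, adjusted p = 1.71e-05). On ENSG00000271885.1, where the counts are lower, it had 621, 499 and 676 normalized counts in DMSO, 509, 305 and 500.3 at 0.5 µM and 368, 417 and 435 at 1.5 µM. There the log2 fold changes were -0.48 ± 0.19 (SE, adjusted p = 0.0412) and -0.55 ± 0.19 (SE, adjusted p = 0.0211), with overlapping groups at 0.5 µM. At 1.5 µM the call on ENSG00000271885.1 was lost without DMSO replicate 1, DMSO replicate 3 or 1.5 µM replicate 1 (adjusted p = 0.0626, 0.081 and 0.0747). At 0.5 µM it was lost under 9 of 21 alternatives, among them without 0.5 µM replicate 2 (log2 fold change -0.23, adjusted p = 0.0821). As near-identical copies share reads, values of SRSF8 are uncertain.

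SRSF7, SRSF9 and SRSF11 (0.10 ± 0.059 and 0.099 ± 0.059) did not pass the test at either dose. SRSF7, an export adaptor and regulator of poly(A) site choice, had 14705, 14796 and 14044 normalized counts in DMSO, 14741, 15703 and 14269 at 0.5 µM and 14234, 14197 and 14165 at 1.5 µM. SRSF9 had 16333, 15903 and 15539.6 normalized counts in DMSO, 16137, 13833 and 16061 at 0.5 µM and 15672, 15472 and 15669 at 1.5 µM. Their log2 fold changes at 1.5 µM were -0.031 ± 0.038 (adjusted p = 0.471) and -0.029 ± 0.053 (adjusted p = 0.637), and 0.5 µM replicate 2 lay outside the other libraries for both, above them for SRSF7 and below them for SRSF9. On FPKM values SRSF7 passed at 1.5 µM with -0.17 (adjusted p = 0.00602).

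In the hnRNP family the largest rises were those of HNRNPLL and HNRNPUL2. HNRNPLL, a regulator of CD45 splicing in T cells, had 4573, 4414 and 4344 normalized counts in DMSO, 6751, 6299 and 6285 at 0.5 µM and 6970.3, 7139 and 7091 at 1.5 µM. It rose 1.45-fold and 1.59-fold (log2 fold change 0.54 ± 0.036, adjusted p = 3.7e-07, and 0.67 ± 0.036, adjusted p = 4.79e-08). HNRNPUL2, a relative of the nuclear matrix protein HNRNPU with a role in the response to DNA breaks, had 15481, 15542 and 15396 normalized counts in DMSO, 22375, 21225 and 21786 at 0.5 µM and 23925, 23204 and 23061 at 1.5 µM. Its log2 fold changes were 0.49 ± 0.029 (SE, adjusted p = 1.22e-07) and 0.60 ± 0.029 (SE, adjusted p = 1.98e-08). For both genes the groups did not overlap and the calls held under all 21 alternatives. A readthrough gene that joins HNRNPUL2 with its neighbour, HNRNPUL2-BSCL2, held 7560 to 7822 normalized counts in DMSO and 12027 to 12413 at 1.5 µM, and how reads were divided between it and HNRNPUL2 is not stated in the labels or notes. HNRNPH3, of the family that binds runs of G, moved downward, with 17032, 17096 and 16711 normalized counts in DMSO, 13452, 15504 and 13391 at 0.5 µM and 12702, 12897 and 12965 at 1.5 µM, and log2 fold changes of -0.27 ± 0.050 (SE, adjusted p = 0.000746) and -0.40 ± 0.050 (SE, adjusted p = 3.37e-05). Promoters of HNRNPUL2 (chr11:62727458-62727707, minus strand) and HNRNPH3 (chr10:68331443-68331692, plus strand, the first of 3 starts in the table) are printed as a pair that changed in opposite directions. Capitals mark the E-box CACGTG, 50 bases before the start of HNRNPH3, and neither the E-box nor the ETS core is in the letters of HNRNPUL2.
HNRNPUL2: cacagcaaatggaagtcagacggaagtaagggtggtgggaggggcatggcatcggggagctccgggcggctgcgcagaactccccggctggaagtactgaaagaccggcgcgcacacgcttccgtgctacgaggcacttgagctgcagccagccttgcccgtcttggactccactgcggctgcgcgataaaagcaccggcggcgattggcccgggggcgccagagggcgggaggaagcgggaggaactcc
HNRNPH3: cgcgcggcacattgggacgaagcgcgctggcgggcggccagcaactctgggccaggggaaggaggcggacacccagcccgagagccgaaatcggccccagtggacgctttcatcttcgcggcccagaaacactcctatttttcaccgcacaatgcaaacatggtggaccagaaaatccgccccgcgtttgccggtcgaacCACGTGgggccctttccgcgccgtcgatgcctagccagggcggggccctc

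HNRNPA1, the most abundant member, fell at both doses. HNRNPA1, which antagonises SRSF1 at many exons, had 142032, 138728 and 137160.0 normalized counts in DMSO, 122049, 128596 and 121196 at 0.5 µM and 113866, 114011 and 113359 at 1.5 µM. Its log2 fold changes were -0.17 ± 0.031 (SE, adjusted p = 0.000674) and -0.29 ± 0.031 (SE, adjusted p = 9.44e-06), with 3 groups that did not overlap. HNRNPM, which binds GU-rich sites, had 43699, 43807 and 42582 normalized counts in DMSO, 36248, 34951 and 36291 at 0.5 µM and 35101, 34518 and 34813 at 1.5 µM, and fell by 0.28 ± 0.027 and 0.32 ± 0.027 on the log2 scale (adjusted p = 6.5e-06 and 1.67e-06). HNRNPF (-0.20 ± 0.024 and -0.26 ± 0.024), HNRNPD (-0.13 ± 0.037 and -0.25 ± 0.037), which also binds AU-rich elements of unstable mRNAs, and HNRNPUL1 (-0.12 ± 0.039 and -0.28 ± 0.039) fell at both doses. At 0.5 µM HNRNPD did not pass on FPKM values (adjusted p = 0.23), and HNRNPUL1 did not pass without DMSO replicate 3, 0.5 µM replicate 1 or 0.5 µM replicate 3 (adjusted p = 0.0671, 0.0714 and 0.0517). HNRNPA1L2, a near copy of HNRNPA1 with which reads may be shared, so that its values are uncertain, had 5132, 4807 and 4791 normalized counts in DMSO, 4143, 2993 and 4078 at 0.5 µM and 3892, 3820.4 and 3987 at 1.5 µM. It passed at both doses (-0.41 ± 0.10, adjusted p = 0.00463, and -0.33 ± 0.10, adjusted p = 0.0134), and its value in 0.5 µM replicate 2 was the lowest of the 9. At 1.5 µM it did not pass without the 3 H19-positive libraries (adjusted p = 0.156).

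A further group of hnRNPs passed at 1.5 µM and not at 0.5 µM. HNRNPK, a protein with KH domains that binds C-rich RNA and DNA, had 57017, 57278 and 56869 normalized counts in DMSO, 52471, 57828 and 51727 at 0.5 µM and 51219, 51767 and 51984 at 1.5 µM. Its log2 fold changes were -0.081 ± 0.040 (SE, adjusted p = 0.0922) and -0.14 ± 0.040 (SE, adjusted p = 0.00751), and at 0.5 µM replicate 2 lay above all DMSO libraries while the others lay below. HNRNPA2B1 (-0.18 ± 0.047 at 1.5 µM), HNRNPA3 (-0.11 ± 0.028), HNRNPC (-0.29 ± 0.078) and HNRNPDL (-0.24 ± 0.073) fell at 1.5 µM in the same way. HNRNPA2B1, HNRNPC and HNRNPDL also had 0.5 µM replicate 2 above every DMSO library. Without that library HNRNPK (-0.13, adjusted p = 6.4e-05), HNRNPA2B1 (-0.096, adjusted p = 0.000915), HNRNPC (-0.23, adjusted p = 1.02e-06) and HNRNPDL (-0.13, adjusted p = 0.000828) passed at 0.5 µM too. HNRNPA3 passed there on FPKM values and with upper-quartile scaling (adjusted p = 0.0181 and 0.0247), and HNRNPK with upper-quartile scaling (adjusted p = 0.00591). None of these 5 falls passed without the 3 H19-positive libraries (adjusted p between 0.0705 and 0.144). Their log2 fold changes in that fit, with 1 library at 1.5 µM, were -0.13 (HNRNPK), -0.19 (HNRNPA2B1), -0.13 (HNRNPA3), -0.29 (HNRNPC) and -0.22 (HNRNPDL). The difference between the doses did not pass the test for any of the 5 (adjusted p between 0.0666 and 0.329). HNRNPL, a binder of CA repeats, was the one member that passed at 0.5 µM alone (-0.18 ± 0.064, adjusted p = 0.0249), with 31771, 25999 and 31482 normalized counts at that dose against 34195, 33436 and 33382 in DMSO. It did not pass without DMSO replicate 1, 2 or 3 (adjusted p = 0.0717, 0.0542 and 0.0517). Without 0.5 µM replicate 2 the log2 fold changes were -0.090 at 0.5 µM and -0.092 at 1.5 µM, and both passed (adjusted p = 0.00169 and 0.00055). In a fit to the 6 libraries compared HNRNPL passed at 1.5 µM alone (adjusted p = 0.00091, and 0.0578 at 0.5 µM).

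Smaller rises were seen in HNRNPA0 (0.15 ± 0.039 and 0.18 ± 0.039) and HNRNPH1 (0.097 ± 0.031 and 0.089 ± 0.031) at both doses, and in HNRNPU (0.12 ± 0.027), a scaffold protein of chromatin, at 1.5 µM (without 0.5 µM replicate 2 also at 0.5 µM, with 0.053, adjusted p = 0.0367). HNRNPA0 did not pass at 0.5 µM with upper-quartile scaling (adjusted p = 0.0893) or on FPKM values (adjusted p = 0.0556), and HNRNPH1 did not pass with upper-quartile scaling at either dose (adjusted p = 0.196 and 0.241). HNRNPH1 also did not pass without DMSO replicate 2 (adjusted p = 0.0578 and 0.0738), nor, at 1.5 µM, without any other library of the groups compared but DMSO replicate 1 (adjusted p between 0.058 and 0.0635). HNRNPU did not pass on FPKM values (adjusted p = 0.0837), and its antisense neighbour HNRNPU-AS1 held 481 to 683 normalized counts over the libraries. HNRNPR and HNRNPH2 had the smallest fold changes at 1.5 µM, and neither passed, though HNRNPH2 did at 1.5 µM on FPKM values and with upper-quartile scaling (adjusted p = 0.0384 and 0.0176). HNRNPR had 26936, 27119 and 27342 normalized counts in DMSO, 27120.1, 32780.4 and 26874 at 0.5 µM and 27031, 26684 and 26862 at 1.5 µM. HNRNPH2 had 8213, 8392 and 8346 normalized counts in DMSO, 8253, 9002 and 8231 at 0.5 µM and 8032, 8014 and 8110.5 at 1.5 µM. In both genes 0.5 µM replicate 2 was the highest of the 9 libraries. HNRNPAB (0.053 ± 0.025 and 0.058 ± 0.025) and HNRNPCL1 (-0.46 ± 0.23 and -0.49 ± 0.23) also did not pass at either dose, and HNRNPCL1, an HNRNPC-like copy, was the member with the lowest level (34.6 to 63 normalized counts).

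**Figure D3:**
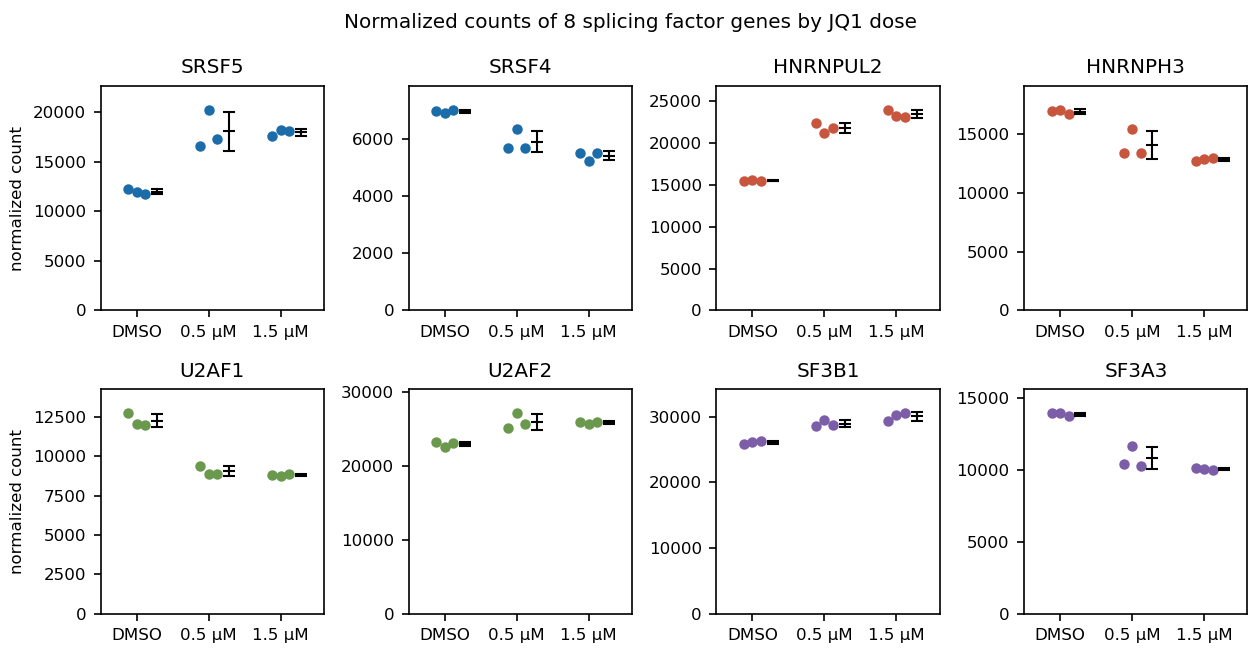
Normalized counts (vertical axes, from 0) of 8 members in the 3 DMSO, 3 0.5 µM and 3 1.5 µM libraries, with points for libraries and black bars for the mean ± SD (n = 3). SRSF5, HNRNPUL2, U2AF2 and SF3B1 lie above DMSO in every JQ1 library and SRSF4, HNRNPH3, U2AF1 and SF3A3 below.

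The subunits of the U2AF dimer parted. U2AF1, the small subunit, had 12734, 12024 and 11991 normalized counts in DMSO, 9406, 8849.8 and 8871 at 0.5 µM and 8807, 8715 and 8886 at 1.5 µM, and fell to 0.738 and 0.719 of the DMSO level (log2 fold change -0.44 ± 0.035, adjusted p = 1.32e-06, and -0.48 ± 0.035, adjusted p = 5.04e-07). U2AF2, the large subunit, had 23228, 22597 and 23108 normalized counts in DMSO, 25082, 27149 and 25686 at 0.5 µM and 25975, 25693 and 25979 at 1.5 µM, with log2 fold changes of 0.18 ± 0.032 (SE, adjusted p = 0.000644) and 0.17 ± 0.032 (SE, adjusted p = 0.000676). The groups did not overlap for either gene at either dose. The fall of U2AF1 held under all 21 alternatives. The sign for U2AF2 depended on the scale: in FPKM it had 202, 197 and 202 in DMSO, 187, 192 and 193 at 0.5 µM and 194, 189 and 184 at 1.5 µM. These values give log2 fold changes of -0.070 (adjusted p = 0.0692) and -0.082 (adjusted p = 0.0366), below DMSO where the normalized counts lay above. In FPKM U2AF1 had 218, 204 and 204 in DMSO and 137, 137 and 139 at 1.5 µM, lower on both scales. The promoters of the pair are printed for the same reason as before, U2AF1 at chr21:43107571-43107820 (minus strand) and U2AF2 at chr19:55654785-55655034 (plus strand). Capitals mark the ETS core, 30 bases before the start of U2AF2.
U2AF1: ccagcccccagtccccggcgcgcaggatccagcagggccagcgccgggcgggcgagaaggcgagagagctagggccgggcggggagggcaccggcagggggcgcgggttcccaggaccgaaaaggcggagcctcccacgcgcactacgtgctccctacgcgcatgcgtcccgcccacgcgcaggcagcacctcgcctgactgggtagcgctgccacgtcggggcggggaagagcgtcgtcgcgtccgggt
U2AF2: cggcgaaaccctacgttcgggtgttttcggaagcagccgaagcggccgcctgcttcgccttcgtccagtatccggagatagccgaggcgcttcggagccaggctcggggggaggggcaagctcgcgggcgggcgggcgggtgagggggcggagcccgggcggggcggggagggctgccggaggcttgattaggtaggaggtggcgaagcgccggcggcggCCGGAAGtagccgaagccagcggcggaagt

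Within the U2 snRNP, SF3A3 and SF3A2 fell and SF3A1 did not pass. SF3A3, the subunit that bridges SF3A and the U2 snRNP, had 13925, 13942 and 13728 normalized counts in DMSO, 10435, 11692 and 10304 at 0.5 µM and 10122, 10029.7 and 10026 at 1.5 µM, with log2 fold changes of -0.36 ± 0.044 (SE, adjusted p = 3.02e-05) and -0.46 ± 0.044 (SE, adjusted p = 3.52e-06). SF3A2 had 10198, 10252 and 10081 normalized counts in DMSO, 8482, 9198 and 8836 at 0.5 µM and 7979.5, 8141 and 8219 at 1.5 µM, with -0.20 ± 0.033 (SE, adjusted p = 0.000281) and -0.33 ± 0.033 (SE, adjusted p = 6.47e-06). SF3A1, the scaffold of the trimer, had 14712, 15275 and 15575 normalized counts in DMSO, 15167, 13640.4 and 15499 at 0.5 µM and 14970.5, 15353 and 15523 at 1.5 µM. Its log2 fold change at 1.5 µM was 0.0092 ± 0.046 (SE, adjusted p = 0.865), and its groups overlapped at both doses.

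SF3B subunits moved both ways. SF3B1, the HEAT-repeat protein that clamps the branch point and is recurrently mutated in cancer, had 25782, 26092 and 26333 normalized counts in DMSO, 28549.7, 29533 and 28701 at 0.5 µM and 29253, 30283 and 30510.2 at 1.5 µM, with log2 fold changes of 0.15 ± 0.028 (SE, adjusted p = 0.000719) and 0.20 ± 0.028 (SE, adjusted p = 6.86e-05). The rise at 1.5 µM held under all 21 alternatives. At 0.5 µM the FPKM values gave -0.00047 (adjusted p = 0.991), with 119 ± 0.619 FPKM in DMSO and 119 ± 2.66 at 0.5 µM (SD, n = 3). SF3B3, the large beta-propeller scaffold beside SF3B1, had 22598, 23336 and 23314 normalized counts in DMSO, 19952, 18788 and 19806 at 0.5 µM and 19582, 19980.5 and 19758 at 1.5 µM, and fell at both doses (-0.24 ± 0.031, adjusted p = 4.24e-05, and -0.22 ± 0.031, adjusted p = 6.73e-05). SF3B4, which contacts the pre-mRNA upstream of the branch point, had 5261, 5109 and 5342 normalized counts in DMSO, 4399, 4725 and 4695 at 0.5 µM and 4479.9, 4414 and 4410.2 at 1.5 µM, with log2 fold changes of -0.19 ± 0.036 (SE, adjusted p = 0.000862) and -0.24 ± 0.036 (SE, adjusted p = 0.000121). The small subunit SF3B5 fell too (-0.11 ± 0.041 and -0.17 ± 0.041). The 0.5 µM call of SF3B5 was lost without DMSO replicate 1 or 2 or 0.5 µM replicate 1 or 3 (adjusted p between 0.0672 and 0.138).

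SF3B2 had 19960.1, 20246 and 19816 normalized counts in DMSO, 20779.9, 22966 and 21522 at 0.5 µM and 21371, 21256 and 21362 at 1.5 µM. It passed with 0.12 ± 0.036 (SE, adjusted p = 0.012) and 0.092 ± 0.036 (SE, adjusted p = 0.0377), but not on FPKM values, where the log2 fold changes were 0.049 and -0.00085 (adjusted p = 0.305 and 0.987). At 1.5 µM it also did not pass by edgeR (adjusted p = 0.0523), nor when any library of the compared groups was left out (adjusted p between 0.0631 and 0.0975). SF3B14, now named SF3B6, which touches the branch point adenosine, did not pass at either dose (0.23 ± 0.099, adjusted p = 0.0582, and 0.12 ± 0.099, adjusted p = 0.287). Promoters of SF3A3 (chr1:37990023-37990272, minus strand) and SF3B1 (chr2:197435029-197435278, minus strand, the first of 2 starts in the table) are printed for the members of the U2 snRNP with the lowest and the highest fold change that passed at 1.5 µM. Capitals mark the ETS core 68 bases before the start of SF3A3, read on the other strand, and the E-box 108 bases before that of SF3B1.
SF3A3: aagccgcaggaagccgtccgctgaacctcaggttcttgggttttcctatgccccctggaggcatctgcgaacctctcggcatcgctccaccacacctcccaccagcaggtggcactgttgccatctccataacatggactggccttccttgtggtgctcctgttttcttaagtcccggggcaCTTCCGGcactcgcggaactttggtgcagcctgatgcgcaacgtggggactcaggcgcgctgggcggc
SF3B1: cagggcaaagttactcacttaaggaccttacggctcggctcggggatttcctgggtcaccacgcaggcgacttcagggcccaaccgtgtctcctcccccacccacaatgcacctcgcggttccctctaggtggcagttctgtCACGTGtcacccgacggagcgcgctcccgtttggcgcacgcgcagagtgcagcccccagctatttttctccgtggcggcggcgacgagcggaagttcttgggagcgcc

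PRPF proteins act at many steps, and their changes followed no single direction. PRPF40B and PRPF39, which serve with the U1 snRNP at the 5′ splice site, rose at both doses. PRPF40B had 684, 619.7 and 715 normalized counts in DMSO, 745, 784 and 882 at 0.5 µM and 768, 812 and 802 at 1.5 µM, with log2 fold changes of 0.25 ± 0.075 (SE, adjusted p = 0.0111) and 0.24 ± 0.075 (SE, adjusted p = 0.014). The groups did not overlap at either dose. PRPF39 had 0.28 ± 0.076 (adjusted p = 0.00753) and 0.19 ± 0.076 (adjusted p = 0.042). On FPKM values neither passed at either dose: PRPF40B had 0.14 and 0.11 (adjusted p = 0.289 and 0.38) and PRPF39 0.18 and 0.10 (adjusted p = 0.124 and 0.364). PRPF40B did not pass without DMSO replicate 2 (adjusted p = 0.0512 and 0.0636), and PRPF39 did not pass at 1.5 µM when any 1 library of the compared groups was left out (adjusted p between 0.0668 and 0.121).

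Tri-snRNP members split. PRPF8, the largest protein of the spliceosome, which holds its catalytic RNA, had 43648, 46287 and 49391 normalized counts in DMSO, 48031, 43504 and 49213 at 0.5 µM and 52722, 54301 and 53391 at 1.5 µM. Its log2 fold changes were 0.014 ± 0.053 (SE, adjusted p = 0.819) and 0.21 ± 0.053 (SE, adjusted p = 0.00515), with overlapping groups at 0.5 µM and none at 1.5 µM. PRPF6, a bridge within the tri-snRNP, rose at both doses (0.12 ± 0.028 and 0.18 ± 0.028), and the rise at 1.5 µM held under all 21 alternatives, while that at 0.5 µM did not pass with upper-quartile scaling (adjusted p = 0.0866). PRPF4B, a kinase of tri-snRNP proteins, had 7283, 7638 and 7529 normalized counts in DMSO, 8471, 9357 and 8450.4 at 0.5 µM and 8430.0, 8998 and 8751 at 1.5 µM and rose at both (0.23 ± 0.045, adjusted p = 0.00101, and 0.22 ± 0.045, adjusted p = 0.00103). At 1.5 µM the calls of PRPF4B and PRPF8 were lost on FPKM values (0.14 and 0.13, adjusted p = 0.0989 and 0.0876). PRPF31, whose loss causes retinitis pigmentosa, fell (-0.087 ± 0.032 and -0.14 ± 0.032), though at 0.5 µM not without DMSO replicate 1 or 3 or 0.5 µM replicate 1 (adjusted p = 0.107, 0.0664 and 0.126). PRPF3 (-0.047 ± 0.068 and -0.16 ± 0.068) and PRPF4, its partners in the U4/U6 particle, did not pass. At 1.5 µM PRPF3 passed under 6 of 21 alternatives, with adjusted p = 0.00255 without 0.5 µM replicate 2, 0.00319 in a fit to the 6 libraries compared, 0.0112 with upper-quartile scaling, 0.0167 with the replicate block, 0.0377 without 0.5 µM replicate 1 and 0.045 by DESeq2. PRPF4 had 5923, 6137 and 6106 normalized counts in DMSO, 5823, 6254 and 5984 at 0.5 µM and 6084, 6177 and 6526 at 1.5 µM, and a log2 fold change of 0.048 ± 0.038 at 1.5 µM (adjusted p = 0.28).

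Members of the later steps also differed. PRPF19, the ubiquitin ligase that gives the Prp19 complex its name, had 17372, 17836 and 17836 normalized counts in DMSO, 15217, 16922 and 15233 at 0.5 µM and 14534, 14529 and 14746 at 1.5 µM. It fell by 0.16 ± 0.041 and 0.28 ± 0.041 on the log2 scale (adjusted p = 0.00415 and 0.00011). PRPF18, a factor of the exon ligation step, had 826, 856 and 848 normalized counts in DMSO, 969, 1163 and 886 at 0.5 µM and 989.6, 995 and 1048 at 1.5 µM, and passed with 0.24 ± 0.085 (SE, adjusted p = 0.0249) and 0.26 ± 0.085 (SE, adjusted p = 0.0176). On FPKM values PRPF18 had 0.20 and 0.21 (adjusted p = 0.093 and 0.072), and at 0.5 µM leaving out any DMSO library ended its call (adjusted p between 0.05 and 0.0708). At 1.5 µM it did not pass without DMSO replicate 1 or 1.5 µM replicate 3 (adjusted p = 0.0533 and 0.0613).

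PRPF38A and PRPF38B, paralogs that serve in activation of the spliceosome, parted. PRPF38B had 6421, 6486 and 6304 normalized counts in DMSO, 5083, 5774 and 5053 at 0.5 µM and 4786, 5062 and 4887 at 1.5 µM, and its log2 fold changes of -0.27 ± 0.050 (SE, adjusted p = 0.000586) and -0.38 ± 0.050 (SE, adjusted p = 4.38e-05) were the lowest of the family. PRPF38A had 7065, 6941 and 7054 normalized counts in DMSO, 6922, 7919 and 6903 at 0.5 µM and 6906, 7136 and 6875 at 1.5 µM, with 0.043 ± 0.049 (SE, adjusted p = 0.452) and -0.0099 ± 0.049 (SE, adjusted p = 0.863) and overlapping groups. In FPKM PRPF38A had 48.5, 44.2 and 48.6 in DMSO, 52.1, 57.9 and 52.4 at 0.5 µM and 52.2, 55.5 and 53.7 at 1.5 µM, log2 fold changes of 0.20 and 0.19 (adjusted p = 0.0114 and 0.0124), with no overlap.

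**Figure D4:**
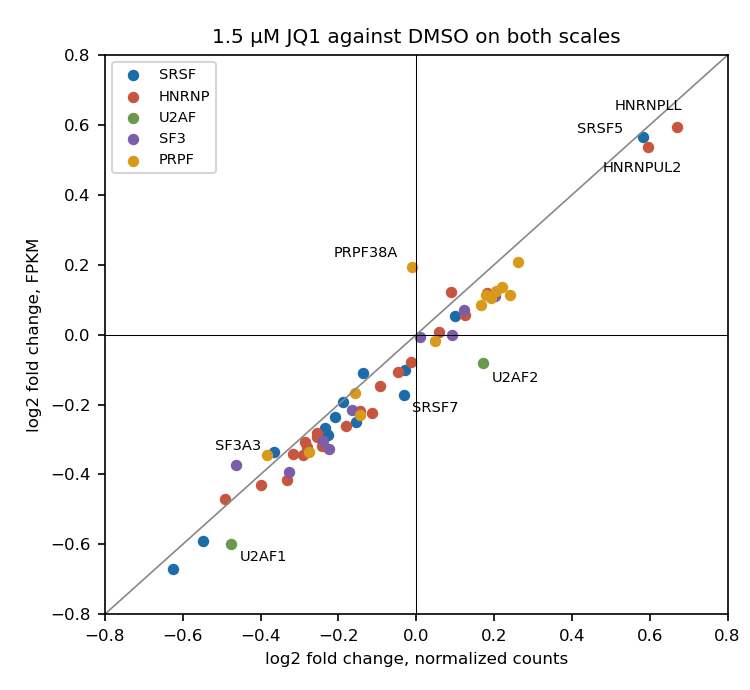
Log2 fold change of each member at 1.5 µM JQ1 against DMSO on normalized counts (horizontal axis) and on FPKM (vertical axis), coloured by family, with the diagonal as the line of equal values. Of the 59 members 52 lie below the line (88.1%), as do 80.5% of the 16435 genes tested on both scales, and 30 lie below it once each scale is centred on the median of those genes. U2AF2 has 0.17 on counts and -0.082 on FPKM, and PRPF38A has -0.0099 and 0.19.

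The 2 scales were compared directly through the ratio of normalized count to FPKM, an analysis added after they were seen to differ for U2AF2. An FPKM divides reads by transcript length, so the ratio depends on the length that the authors' quantification gave a gene in that library. With limma on the log2 ratio, centred per library, 4 of 58 members with at least 1 FPKM in each library passed at 0.5 µM (6.9%, against 2.47% of 13250 genes) and 6 at 1.5 µM (10.3%, against 3.23%). With a minimum of 5 FPKM, 5 and 6 of 55 members passed. The share of all genes at that minimum, or among genes at the members' levels, was not computed. These counts therefore describe the members only. U2AF2 had log2 ratios of -0.26, -0.27 and -0.27 in DMSO, -0.088, 0.0074 and -0.093 at 0.5 µM and -0.10, -0.084 and -0.031 at 1.5 µM, with differences of 0.21 ± 0.030 (SE, adjusted p = 0.0205) and 0.19 ± 0.030 (SE, adjusted p = 0.0209). PRPF38A went down, from 0.079, 0.18 and 0.075 to -0.10, -0.040 and -0.11 and -0.12, -0.16 and -0.17, with -0.20 ± 0.033 (SE, adjusted p = 0.0354) and -0.27 ± 0.033 (SE, adjusted p = 0.00933). The groups did not overlap for either gene. SRSF7 passed at both doses (0.053 ± 0.0090, adjusted p = 0.0342, and 0.081 ± 0.0090, adjusted p = 0.00736), HNRNPC at 0.5 µM (-0.070 ± 0.011, adjusted p = 0.0224), and SRSF6 (-0.089 ± 0.016, adjusted p = 0.0314), PRPF38B (-0.10 ± 0.019, adjusted p = 0.0386) and U2AF1 (0.062 ± 0.0089, adjusted p = 0.0149) at 1.5 µM. Levels of single transcripts were not analysed here.

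Differences between the doses were small for these genes, and most lay below 0. The median log2 fold change from 0.5 to 1.5 µM was -0.053, against -9.0e-05 over all tested genes. The median size was 0.069, against 0.11. By family the medians were -0.069 (SRSF), -0.058 (HNRNP), -0.054 (SF3), -0.022 (PRPF) and -0.021 (U2AF). Between 1.5 and 0.5 µM, 3 members rose and 3 fell (10.2% of the 59, against 12.7% of all tested genes, of which 4.66% rose and 8.09% fell), and the libraries of the doses did not overlap for 24 members (40.7%, all tested genes 33.7%). HNRNPLL (0.13 ± 0.036, adjusted p = 0.0395), HNRNPUL2 (0.10 ± 0.029, adjusted p = 0.0447) and PRPF8 (0.19 ± 0.053, adjusted p = 0.0427) were higher at 1.5 µM. HNRNPA1 (-0.12 ± 0.031, adjusted p = 0.0305), HNRNPUL1 (-0.16 ± 0.039, adjusted p = 0.0244) and SF3A2 (-0.12 ± 0.033, adjusted p = 0.0392) were lower. No SRSF member passed by limma (5 of 13 at an unadjusted p under 0.05). These 6 calls were fragile: limma gave 0 on FPKM values (19 of 59 at an unadjusted p under 0.05), 0 in a fit to the 6 libraries compared (16), and 0 without 1.5 µM replicate 1, 2 or 3 (13, 14 and 16). Without the 3 H19-positive libraries the count was again 0 (3 at an unadjusted p under 0.05), without DMSO replicate 2 it was 1 and without DMSO replicate 3 it was 3. edgeR called 5 and DESeq2 called 12 (1 of them SRSF), and limma also called 12 without 0.5 µM replicate 2. Member counts under these settings and at an unadjusted p are not set against the share of all tested genes in the same setting. They describe the members only. The calls over all tested genes moved with the setting too, from 2233 in the main fit to at most 3217, as given in the section on processing.

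In level, hnRNPs dominated the set. On the FPKM scale, which corrects for length and so allows a comparison between genes, HNRNPA1 stood highest in DMSO with 1671 ± 27.3 (SD, n = 3), followed by HNRNPA2B1 with 1222 ± 18.5 and HNRNPC with 676 ± 8.30. These 3 genes made up 31.8% of the members' summed FPKM. The highest SR protein was SRSF1 with 229 ± 0.829, and HNRNPCL1 was the lowest member with 0.910 ± 0.0529. The median member had 112 FPKM, against 7.82 over the genes of the table of counts, and 5 members lay under 10 FPKM. Of the 33 members with at least 100 FPKM in DMSO, 7 rose, 20 fell and 6 did not pass at 1.5 µM, and of the 26 below that level 9 rose and 10 fell. Over all tested genes 36.9% rose and 36.2% fell at 1.5 µM. The balance of all genes at these levels was not computed, so these counts are a description of the members only.

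The summed FPKM of the 59 members went from 11214 ± 75.4 in DMSO to 10566 ± 554 at 0.5 µM and 9861 ± 46.7 at 1.5 µM (SD, n = 3). For the HNRNP family alone the sums were 7737 ± 55.7, 7229 ± 420 and 6653 ± 45.2. The sums of 0.5 µM replicate 2 lay within the DMSO range, with 11205.5 for all members (DMSO 11146.4 to 11295.2) and 7712 for HNRNP (DMSO 7684 to 7795). Every other JQ1 library lay below DMSO in both sums. The PRPF sum, 633 ± 7.41 in DMSO and 617 ± 8.36 at 1.5 µM, moved less than the others in proportion. Among all reads in genes the members took 1.95% ± 0.0128 in DMSO, 1.83% ± 0.0514 at 0.5 µM and 1.75% ± 0.0018 at 1.5 µM. At 0.5 µM replicate 2 took the highest share of its group (1.89%), and all JQ1 libraries lay below all DMSO libraries (1.93% to 1.96%).

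Promoter letters were compared with those of other genes as a description. Of the 58 member symbols, 52 matched the RefSeq promoter table of GRCh38.p14, 2 of them under a newer name (PRP4K for PRPF4B and SF3B6 for SF3B14). HNRNPA1, PRPF3, PRPF39, SF3B3 and SRSF2 were among those not matched. Each gene counted once if any of its listed starts had the letters on either strand within the 250 bases before it. The E-box CACGTG, its own reverse complement and a sequence that MYC and related factors can bind, was found in 7 of 52 members (13.5%) and in 9.73% of 15843 protein-coding genes of the table. Of these 7, 6 are HNRNP genes (HNRNPA3, HNRNPD, HNRNPDL, HNRNPH2, HNRNPH3 and HNRNPM) and 1 is SF3B1. At 1.5 µM 5 of them fell, SF3B1 rose and HNRNPH2 did not pass. The ETS core CCGGAAG, bound by ETS family factors, was found in 15 of 52 members (28.8%) and in 14% of the protein-coding genes. It was present in 6 of 8 SF3 members (75%), 7 of the 14 members that rose at 1.5 µM on normalized counts and 6 of the 26 that fell. Of these 7, HNRNPLL, PRPF6 and SRSF5 also rose on FPKM values. PRPF18, PRPF4B and SF3B2 did not pass there (limma adjusted p = 0.072, 0.0989 and 0.987), and U2AF2 fell (-0.082, adjusted p = 0.0366). The 6 falls passed on both scales. The difference between members that rose and fell was not tested. The GC box GGGCGG, bound by SP1, was in 34 members (65.4%) and 62.1% of protein-coding genes. The 3 searches were made separately, so that matches may overlap, and a match shows letters in a window, not binding.

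Other genes of the splicing pathway, from lists drawn up with earlier results of these data known, are given by their counts. Their balance was not tested against that of all tested genes, whose shares were 35.3% higher and 34.7% lower under 0.5 µM, 36.9% higher and 36.2% lower under 1.5 µM. Of 9 kinases that phosphorylate SR proteins 6 were higher and 1 lower under either dose (medians 0.29 and 0.25), so that 77.8% changed, against 70.0% and 73.1% of all tested genes. SRPK2 had 0.41 ± 0.038 and 0.54 ± 0.038 (adjusted p = 4.19e-06 and 3.26e-07), and DYRK1B 0.50 ± 0.041 and 0.57 ± 0.041. The CDC2-like kinases CLK1 (0.43 ± 0.079 at 1.5 µM), CLK2 (0.25 ± 0.050) and CLK4 (0.43 ± 0.12) rose at both doses. CLK1, CLK2, CLK4, SRPK2, TRA2A and TRA2B were picked after their values were seen. SRPK3, the muscle-type kinase, went down, with a mean of 648 ± 5.69 normalized counts in DMSO (SD, n = 3), 331 ± 19.3 at 0.5 µM and 276 ± 16.1 at 1.5 µM. Of 24 SR-related proteins 12 were up and 3 down at 0.5 µM, then 13 up and 6 down. C1orf63, now RSRP1, had 0.80 ± 0.073 and 0.97 ± 0.073. SRRM2, a scaffold of nuclear speckles, went from 52916 ± 3191 to 71192 ± 4004 and 81343 ± 1437 normalized counts. The size of its rise depended on the setting, with log2 fold changes of 0.15 to 0.47 at 0.5 µM and 0.30 to 0.66 at 1.5 µM over the alternatives. TRA2A rose (0.40 ± 0.063 and 0.28 ± 0.063), while its paralog TRA2B fell at 1.5 µM (-0.15 ± 0.053).

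Of 20 Sm, LSm, U1 and U2 proteins tested, 2 were up and 10 down at 0.5 µM, then 2 up and 12 down, with medians of -0.20 and -0.36. The share that changed was 60% and 70% (all tested genes 70.0% and 73.1%), and 50% and 60% fell (all tested genes 34.7% and 36.2%). SNRPB, a core Sm protein, fell from 21927 ± 769.6 to 15631 ± 709.8 and 14390.2 ± 459 normalized counts. SNRPC of the U1 snRNP had -0.44 ± 0.043 and -0.61 ± 0.043. Of 13 U5 and tri-snRNP proteins outside the PRPF family 3 rose and 6 fell, then 4 rose and 7 fell, led by PPIH (-0.54 ± 0.12 and -0.81 ± 0.12) and SNRNP40 (-0.38 ± 0.029 and -0.41 ± 0.029). Of 18 further Prp19 complex and catalytic proteins 2 rose and 7 fell, then 3 rose and 8 fell, with PPIL1 at -0.69 ± 0.070 and ISY1 at -0.62 ± 0.072 at 1.5 µM. Among 11 helicases 1 rose and 4 fell, then 2 rose and 5 fell. DDX39A, which also serves in export, had -0.63 ± 0.028 at 1.5 µM, and DHX38 -0.37 ± 0.032. Of 12 other branch point and U2-associated proteins 3 rose and 4 fell, then 2 rose and 5 fell, with HTATSF1 at -0.52 ± 0.053 at 1.5 µM. Of the 8 minor spliceosome genes 3 rose at each dose, ZMAT5 (0.62 ± 0.078 at 1.5 µM) and SNRNP25 (0.49 ± 0.039) most, and 0 and 1 fell.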

How the data were processed

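Total RNA of 9 libraries was sequenced with a stranded library kit, per the labels' protocols. Tools named by the submitters' processing notes are cutadapt, STAR and RSEM, with hg19 as the build. The authors deposited 2 tables: normalized counts of 17518 genes, a signal per gene that, from its values, is a whole read count divided by 1 factor per library, and FPKM values of 57820 genes, which scale reads to gene length and library depth. Whether reads were counted by strand is not stated there. Dividing each normalized column by its smallest step gave whole reads for all values (tolerance 0.001), and their totals are the depths given. Members were found by symbol, and the members and all gene lists were chosen with earlier results of these data known.

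Genes with at least 10 normalized counts in at least 3 libraries were kept (17514, with 4 removed). Values were taken as log2(normalized count + 1), so fold changes of low genes are understated. limma 3.58.1 with an intensity trend (R 4.3.3) was fitted to all 9 libraries, and p-values of 3 comparisons were adjusted by Benjamini-Hochberg over all tested genes at 0.05. Named members are, in each family, up to 5 that passed at 1.5 µM with the largest log2 fold changes and a mean of at least 100 normalized counts, the 2 with the smallest, and SRSF2, SF3B1, U2AF1, HNRNPA1, HNRNPK and PRPF8. Other members are named with their fold changes. From each further list up to 2 genes were named by the same measure, and any others were picked after their values were seen. limma p-values set each difference against a spread within groups, estimated for each gene over all 9 libraries with the intensity trend. An outlying library therefore enters the SE of every comparison, also of those between the other groups. The spread within a group rests on its 3 libraries alone. Alternatives were DESeq2 1.42.0 and edgeR 4.0.16 run on those whole reads, TMM and upper-quartile scaling, FPKM values as log2(FPKM + 0.1) with at least 0.5 in 3 libraries, other pseudocounts and filters, a fit to the 6 libraries compared, the replicate block, and leaving out each library or the 3 libraries with H19. The steps were tested on simulated data with far fewer changed genes than here. The planted changes were larger than most of those of the members, so that test does not cover changes this small. Figures were drawn with matplotlib 3.10.9 under Python 3.11.15. Promoter sequences came from RefSeq (GRCh38.p14), and no coordinates of hg19 are printed. The values of some genes, 1 member among them, enter the counts and medians but are not reported here by name.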

Additional observations from a re-analysis of the deposited data

How the results depend on the processing

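Every comparison of levels was recomputed under 21 alternatives. TMM scaling, other pseudocounts (0.1 and 5) and another or no filter on low counts left the counts of members called within 1.5 times of those reported in all 3 comparisons, as did edgeR. The weakest comparison was that of the doses, where the genes called numbered 1123 in a fit to the 6 libraries compared, 892 on FPKM values, 48 without the 3 libraries with H19 and SLC2A3 and 1002 to 3217 when 1 library was left out. The members called there were 0 in the first 3 of these settings, 12 by DESeq2 and 0 to 12 when 1 library was left out. Members that rose numbered 7 on FPKM values and 9 with upper-quartile scaling at 0.5 µM, and 8 on FPKM values at 1.5 µM. Without the 3 libraries 15 members fell at 0.5 µM, and 29 passed at 1.5 µM, 10 of them higher and 19 lower.

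Family medians on FPKM values were -0.24 (HNRNP), 0.10 (PRPF), -0.21 (SF3), -0.23 (SRSF) and -0.34 (U2AF) at 1.5 µM, and -0.13 (SF3) and -0.29 (U2AF) at 0.5 µM. With upper-quartile scaling they were -0.21, 0.12, -0.22, -0.24 and -0.20 in the same order at 1.5 µM, and -0.011 (PRPF), -0.16 (SF3), -0.16 (SRSF) and -0.18 (U2AF) at 0.5 µM. Without the 3 libraries the SF3 median at 0.5 µM was -0.092 and the SRSF median at 1.5 µM -0.14. Leaving out 1 library gave -0.13 to -0.080 for SF3 at 0.5 µM, and 0.15 to 0.18 for PRPF and -0.16 to -0.13 for U2AF at 1.5 µM. The cause of these shifts was not tested.

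Some log2 fold changes that turned sign had passed on normalized counts: U2AF2 at both doses (0.18 and 0.17), SF3B1 at 0.5 µM (0.15) and SF3B2 at 1.5 µM (0.092). After the turn adjusted p was above 0.05, other than for PRPF38A (0.19) and U2AF2 (-0.082) on FPKM values at 1.5 µM. On FPKM values the others were -0.019 for PRPF4, -0.0073 for SF3A1 and -0.00085 for SF3B2 at 1.5 µM, and -0.0097 for HNRNPH2, -0.054 for PRPF8, -0.00047 for SF3B1, -0.054 for SRSF7 and -0.070 for U2AF2 at 0.5 µM. With upper-quartile scaling they were -0.0027 for PRPF4 and -0.041 for SF3A1 at 1.5 µM, and -0.00071 for HNRNPAB, -0.024 for HNRNPH2, -0.013 for HNRNPU, -0.011 for PRPF38A, -0.039 for PRPF8 and -0.016 for SRSF7 at 0.5 µM. Without the 3 libraries HNRNPA2B1 had 0.00053, HNRNPDL 0.028 and PRPF8 -0.021 at 0.5 µM. Leaving out 1 library gave, at 0.5 µM, -0.096 to 0.00053 for HNRNPA2B1, -0.13 to 0.028 for HNRNPDL, -0.013 to 0.052 for HNRNPH2, -0.0072 to 0.14 for HNRNPR, -0.13 to 0.013 for PRPF3, -0.022 to 0.077 for PRPF38A, -0.037 to 0.015 for PRPF4, -0.029 to 0.068 for PRPF8, -0.078 to 0.014 for SF3A1, -0.00079 to 0.068 for SRSF7 and -0.095 to 0.016 for SRSF9. At 1.5 µM it gave -0.027 to 9.3e-05 for PRPF38A and -0.014 to 0.028 for SF3A1.

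The replicate numbers of the labels did not pair the libraries: deviations from the group means correlated between -0.385 and 0.131 for same-numbered libraries. With the replicate block 39 members were called at 0.5 µM (15 higher and 24 lower) and 47 at 1.5 µM (16 higher and 31 lower). In the main fit, without the block, these were 38 (64.4%, all tested genes 70.0%) and 46 (78.0%, all tested genes 73.1%). The counts under the block are not set against a share of all tested genes under the block, and describe the members only. Of 184 log2 fold changes of named genes and members, 181 kept their side of the threshold under the block, PRPF3 at 1.5 µM (adjusted p = 0.0167) and SF3B14 at 0.5 µM (adjusted p = 0.0494) passed, and MYOF at 1.5 µM no longer did, all by limma.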

Other observations

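Regulators of alternative splicing outside the core machinery included genes with fold changes beyond 2. Of 29 tested regulators with tissue-restricted roles 9 were up and 16 down at 0.5 µM, then 9 up and 15 down, where 35.3% and 36.9% of all tested genes rose and 34.7% and 36.2% fell. The balance of this list and of those that follow was not tested against all genes. SRRM4, which drives neural microexons, rose, with means of 2663 ± 169.8 normalized counts in DMSO (SD, n = 3), 4767 ± 189 at 0.5 µM and 4850.4 ± 92.9 at 1.5 µM, and log2 fold changes of 0.84 ± 0.049 (SE, adjusted p = 1.12e-07) and 0.87 ± 0.049 (SE, adjusted p = 6.05e-08) by limma. Its relative SRRM3 fell (-0.28 ± 0.042 and -0.35 ± 0.042). RBM47 and RBM24 fell most of the list, RBM47 from 1381 ± 17.5 to 577 ± 41.4 and 494 ± 35.5 and RBM24 from 858 ± 23.4 to 387 ± 52.4 and 309.7 ± 24.1 normalized counts. PTBP1, a repressor of neural exons, fell (-0.24 ± 0.027 and -0.26 ± 0.027), as did its neural paralog PTBP2 (-0.29 ± 0.072 and -0.44 ± 0.072), and RBFOX2 rose (0.29 ± 0.032 and 0.24 ± 0.032). SRRM4, SRRM3, PTBP1, PTBP2 and RBFOX2 were picked after their values were seen.

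Of 18 tested hnRNP relatives 5 were up and 2 down at 0.5 µM, then 6 up and 4 down. The cold-inducible RNA-binding proteins parted: CIRBP rose from 22128 ± 628 to 49128 ± 3000.3 and 55344 ± 984 normalized counts, while RBM3 fell from 14408 ± 194 to 11012 ± 880.3 and 9747 ± 412. Among 16 genes of the exon junction complex and of nonsense-mediated decay 8 rose and 2 fell, then 8 rose and 3 fell. SMG6, the endonuclease of the pathway, rose (0.66 ± 0.034 and 0.83 ± 0.034) and MAGOHB, a copy of the junction protein MAGOH, fell (-1.10 ± 0.080 and -1.33 ± 0.080). Of 8 genes of arginine methylation, which modifies Sm proteins and hnRNPs, 1 was up and 6 down at each dose. PRMT5 went from 12139 ± 114 to 7326 ± 679 and 6463 ± 23.1 normalized counts, and CARM1 had -0.41 ± 0.030 and -0.52 ± 0.030.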
